A study of Sus scrofa with 15 samples.

Results

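The inflammatory mediators CCL2, LIF, VCAM1, IL6 and CXCL8 were followed through a culture of pig granulosa cells. Each gene was taken as the probe set, the group of array probes that together read 1 transcript, with that gene as its single symbol in the array annotation. All 5 genes were measured, each by exactly 1 probe set, out of 6765 genes named on the array. The genes were listed with earlier results of these data known, so they are described here and no test is made of the group as a group. No sequences are printed for them, because the tables used here pair the probe sets with gene names only.

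Granulosa cells surround the oocyte inside the follicle of the ovary and make steroid hormones. Total RNA of such cells from pig ovarian follicles was labelled with biotin and read on Affymetrix porcine arrays on day 0, before culture, and on days 1, 2, 4 and 7 of culture. Per the labels, the cells lose their specialised state during this time, and those of day 7, grown to semiconfluence, are called DFOG cells. The 15 arrays fall into 3 replicates a day, a number that sets the precision. The labels call the replicates biological but name no separate animals or cultures. The p-values therefore describe how these arrays vary, and part of that variation may be technical. The labels used here give no breed, age or treatment besides the time in culture.

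CCL2 is a secreted chemokine, also called MCP-1, that attracts monocytes. CXCL8, or interleukin 8, is a chemokine for neutrophils. LIF and IL6 are cytokines of a single family whose receptors share the subunit IL6ST (gp130) and act through JAK kinases and STAT3. VCAM1 is a membrane protein that leukocytes bind through the integrin of ITGA4 and ITGB1. CCL2, VCAM1, IL6 and CXCL8 are well-known targets of the transcription factor NF-kappaB, and leukocyte recruitment by such mediators is a known part of ovulation.

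Values are log2 probe set values, so a difference of 1 is a doubling. Calls come from a limma fit to all 23999 probe sets: the p adjusted over all of them by Benjamini-Hochberg had to be under 0.05, and the change at least 1 in size. The lower quartile of each array lay at 4.41 to 4.68. A level in or under that range is too dim to rank, and the size of a change that starts there is uncertain and may be too small. Values of different probe sets are not on a common scale, so the genes are compared by their changes and not by their levels.

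CCL2 rose on day 1 and was among the brightest probe sets of the arrays by day 7. On day 0 its values were 5.69, 4.27 and 4.38 in replicates 1, 2 and 3, with replicates 2 and 3 below the lower quartile of their own arrays. They were 9.34, 8.16 and 9.36 on day 1, so every array of day 1 stood above every array of day 0. The same held for 27.8% of the 6765 named genes. On day 2 the CCL2 values were 11.43, 9.71 and 9.37. The spread was widest on that day, because the replicate 1 array lay apart from the other two. Values of 12.11, 11.30 and 11.68 followed on day 4, and of 13.28, 11.71 and 11.76 on day 7, which overlapped with each other. On day 7 the CCL2 probe set was brighter than 97.9% to 99.4% of the probe sets of its array, against 20.6% to 39.7% on day 0.

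CCL2 rose by 4.17 ± 0.58 (SE, 3 arrays on each day, limma adjusted p = 1.20e-04) on day 1 and by 7.47 ± 0.58 (adjusted p = 3.14e-07) on day 7, both against day 0. The latter is 177-fold. The day 0 mean of 4.78 lay just above the range of the lower quartiles, with replicates 2 and 3 below it, so this size is uncertain. The changes over day 0 were 5.39 ± 0.58 on day 2 and 6.92 ± 0.58 on day 4, both called. Within the culture, CCL2 rose by 3.30 ± 0.58 (adjusted p = 0.00114) from day 1 to day 7, and this comparison does not involve the dim day 0 values. The single steps after day 1 did not pass the test: 1.22 ± 0.58 from day 1 to day 2 (adjusted p = 0.300), 1.52 ± 0.58 from day 2 to day 4 (adjusted p = 0.213) and 0.55 ± 0.58 from day 4 to day 7. With replicate number as a block the steps to day 2 and to day 4 passed, at adjusted p = 0.0221 and 0.00885. The step to day 4 also passed without day 2 replicate 1, the high array of that day, at 2.15 (adjusted p = 0.0438).

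**Figure D1:**
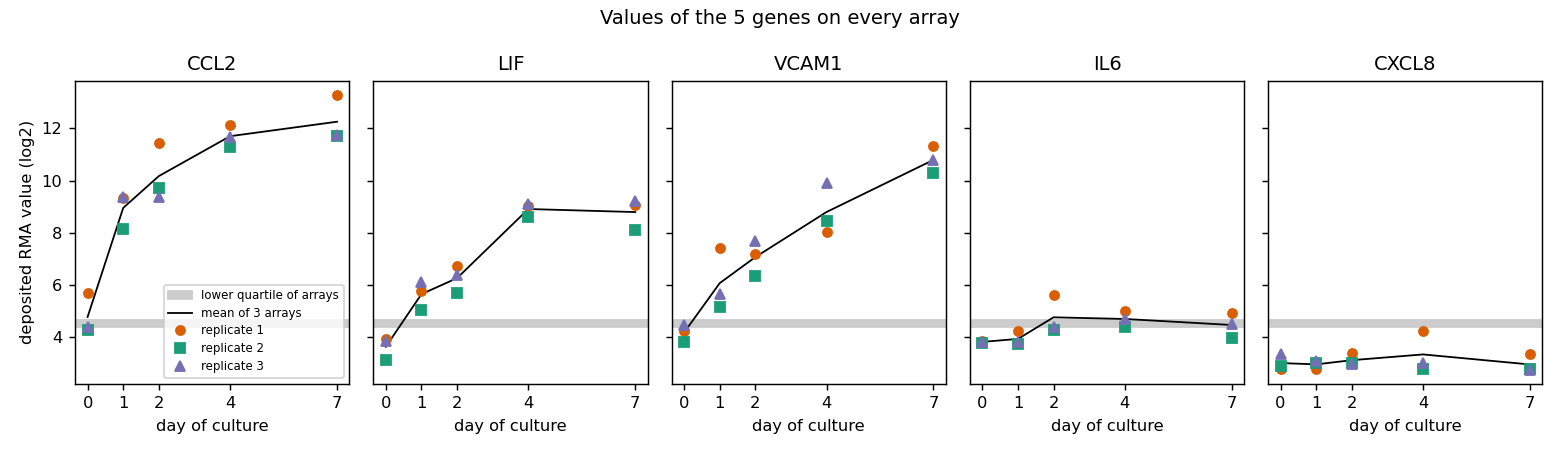
Deposited log2 value of each of the 5 genes (vertical axis) against the day of culture, with 1 point for each array, a line through the mean of 3 arrays and a grey band over the range of the arrays' lower quartiles (4.41 to 4.68). CCL2, LIF and VCAM1 lie above the band on every array from day 1 and end at day means of 12.25, 8.79 and 10.79, IL6 stays near it, and CXCL8 lies under it on all 15 arrays.

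LIF, the cytokine of the gp130 family, was called higher on day 1 and again between days 2 and 4. Its values were 3.93, 3.14 and 3.85 on day 0, all below the lower quartile of their arrays, and 5.79, 5.06 and 6.11 on day 1. They were 6.72, 5.70 and 6.38 on day 2, overlapping with day 1. A second separation came on day 4, at 9.03, 8.61 and 9.09, where the lowest array lay above the highest of day 2. Of the 6765 named genes, 12% lay wholly higher on day 4 than on day 2. On day 7 the values of 9.08, 8.10 and 9.20 overlapped with those of day 4.

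LIF rose by 2.01 ± 0.35 on day 1 (adjusted p = 8.04e-04), and its rise stood at 2.63 ± 0.35 on day 2. The step from day 1 to day 2 was 0.61 ± 0.35 (limma adjusted p = 0.438), with each replicate higher on day 2. With replicate number as a block its adjusted p was 0.0202, with the size still under the minimum change. Between days 2 and 4 it rose by a further 2.65 ± 0.35 (6.26-fold, adjusted p = 7.18e-04). That was the 11th largest rise of the 6765 genes over this step, and LIF was the only 1 of the 5 genes called there. By day 7 the change from day 0 was 5.15 ± 0.35 (adjusted p = 1.12e-07). The difference between days 4 and 7 was -0.12 ± 0.35, with a 95% interval from -0.88 to 0.64, so a late change within that interval is not excluded. Larger changes could also go uncalled in this step, where 14 of 23999 probe sets were called. From day 1 to day 7 LIF rose by 3.14 ± 0.35 (adjusted p = 3.33e-05).

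IL6, the other measured ligand of this family, stayed dim. Its values were 3.87, 3.79 and 3.82 on day 0 and 4.23, 3.75 and 3.84 on day 1. On day 2 they were 5.63, 4.28 and 4.39, above all 3 arrays of day 0 and with replicate 1 far above the others. Days 4 and 7 gave 5.02, 4.38 and 4.71, and 4.93, 3.97 and 4.52, again above day 0 on every array. Of the 6765 named genes, 28.2%, 29.1% and 31.6% likewise lay wholly above day 0 on days 2, 4 and 7. Of the 15 arrays, 11 had IL6 below their own lower quartile.

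The difference of IL6 from day 0 was 0.94 ± 0.32 on day 2 (adjusted p = 0.0467), under the minimum change of 1. It was 0.88 ± 0.32 on day 4 (adjusted p = 0.0549) and 0.65 ± 0.32 on day 7 (adjusted p = 0.153), with a 95% interval on day 7 from -0.05 to 1.35. The day 2 difference was 0.51 without day 2 replicate 1, the high array (adjusted p = 0.194), and 0.60 with array weights. It was called without day 2 replicate 2 (1.18) or without day 2 replicate 3 (1.13), and the day 4 difference without day 4 replicate 2 (1.04) or after a second quantile normalization (1.00). With replicate number as a block the adjusted p was 0.00349 on day 2, 0.00469 on day 4 and 0.0253 on day 7, with the differences still under the minimum change. Because most of these values lie in the dim part of the arrays, the size of any change of IL6 is uncertain.

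VCAM1, the adhesion molecule, rose against day 0 on every later day, while no single step after day 1 was called. Day 0 gave 4.25, 3.83 and 4.47, all below the lower quartile of their arrays, and day 1 gave 7.40, 5.18 and 5.64. Replicate 1 was the high array of day 1, and the SD of 1.17 was the largest for this gene. The values were 7.18, 6.36 and 7.67 on day 2 and 8.02, 8.45 and 9.92 on day 4, without overlap. On day 7 they were 11.33, 10.27 and 10.77, all above the arrays of day 4. Of the 6765 named genes, 12% lay wholly higher on day 4 than on day 2, and 6.13% on day 7 than on day 4.

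VCAM1 rose by 1.90 ± 0.57 on day 1 (adjusted p = 0.0251), but this call did not hold in every fit. It was lost when day 0 replicate 1 (change 1.93), day 0 replicate 2 (1.72) or day 1 replicate 1 (1.23) was left out, and with array weights (1.36). The estimate itself fell most without day 1 replicate 1, the high array of that day. Its rises over day 0 of 2.89 ± 0.57 on day 2, 4.62 ± 0.57 on day 4 and 6.61 ± 0.57 on day 7 (adjusted p = 8.77e-07) were called. The last is 97.7-fold, as a lower bound. From day 1 to day 7 it rose by 4.71 ± 0.57 (adjusted p = 6.06e-05), the 14th largest rise of the 6765 genes in that comparison. The step from day 1 to day 2 was 0.99 ± 0.57 (adjusted p = 0.433), with overlapping values and replicate 1 lower on day 2. The step from day 2 to day 4 was 1.73 ± 0.57 (adjusted p = 0.134, and 0.0444 with replicate number as a block). That from day 4 to day 7 was 1.99 ± 0.57 (unadjusted p = 0.00377, adjusted p = 0.523), which is not called although only 2 of the 6765 genes had a larger estimate. With array weights that step was 1.12, also not called.

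CXCL8 stayed at the bottom of the scale. Its values ran from 2.79 to 3.36 on day 0, from 2.80 to 3.10 on day 1 and from 2.98 to 3.40 on day 2. They were 4.24, 2.78 and 3.02 on day 4, where replicate 1 gave the highest value of the series, and 2.75 to 3.35 on day 7. All 15 arrays had CXCL8 below their own lower quartile, and at most 21.7% of the probe sets of an array were dimmer. The difference between days 7 and 0 was -0.05 ± 0.31 with a 95% interval from -0.73 to 0.62 (adjusted p = 0.925), but at this signal a change of a low level would not have been detectable. The largest difference from day 0, on day 4, was 0.33 ± 0.31.

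Of the 5 genes, 3 were called higher on day 1, the same number on each of days 2, 4 and 7 against day 0 and also on day 7 against day 1, and 0 were called lower. Over the 6765 named genes the share called higher was 8.88%, 9.79%, 12.3%, 12.7% and 8.22% in these comparisons. In the steps between sampled days the limma fit called 0 of the 5 higher on day 2 against day 1, where 2.96% of genes were, with 1 of 5 (IL6) at an unadjusted p under 0.05. It called 1 on day 4 against day 2, against 2.66% of genes. On day 7 against day 4 it called 0, against 0.0591% of genes, with 1 of 5 (VCAM1) at an unadjusted p under 0.05. The F test over all days called 3 of the 5, against 29.2% of genes, with adjusted p of 1.63e-06 for CCL2, 2.52e-07 for LIF and 6.69e-06 for VCAM1. That of IL6 was 0.0819 (0.00462 with replicate number as a block, its range of 0.94 still under the minimum) and that of CXCL8 0.823. The comparisons with day 0 share the same 3 arrays and are not independent of each other.

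**Figure D2:**
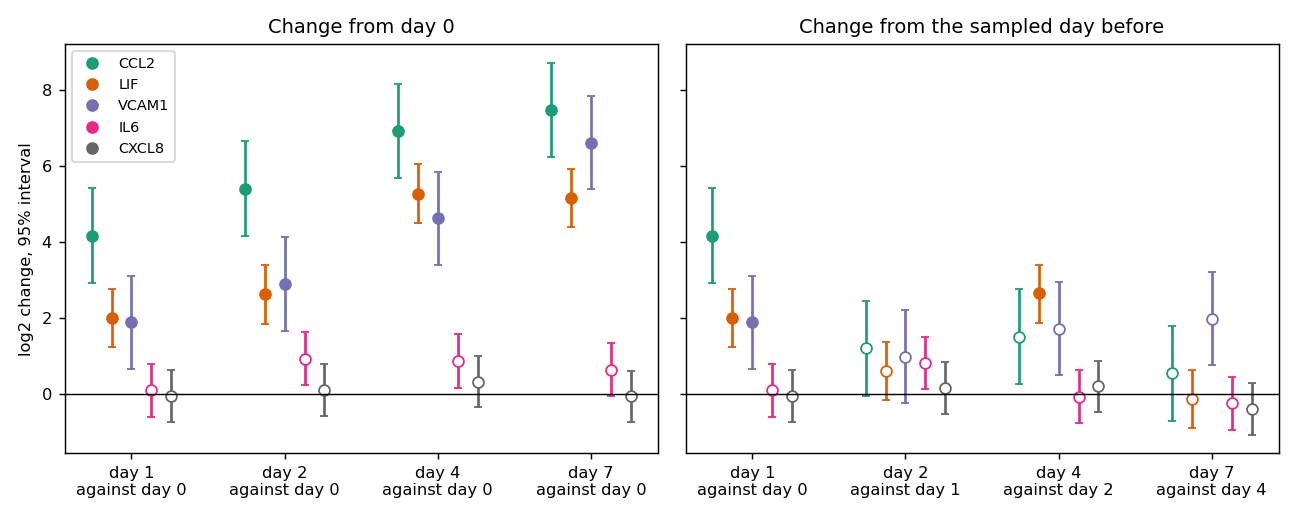
Log2 change of each of the 5 genes (vertical axis, with the 95% interval from limma) against day 0 on the left and against the sampled day before on the right; filled points were called and open points were not. The first step of CCL2 is estimated at 4.17, LIF is the only gene called between days 2 and 4 (2.65), and the largest last step is that of VCAM1 (1.99), which was not called.

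Because the genes were measured in bulk RNA, a change in the share of cells of a type and a change in RNA per cell cannot be told apart. Of 12 granulosa markers 6 fell and 0 rose by day 7 (0 higher also at an unadjusted p under 0.05 in limma), with a summed level of 15.44 to 15.92 on day 0 and 10.83 to 11.00 on day 7. The mean of INHA, which encodes a chain of the hormone inhibin, was 14.26 ± 0.20 (SD, n = 3) before culture and 7.05 ± 0.20 at its end. CYP19A1, the aromatase, and FOXL2, a transcription factor of granulosa cells, stayed below the array medians on every day, at day means of 4.93 to 5.26 and 5.67 to 5.93. Macrophages and monocytes, by 13 markers, had summed levels of 8.83 to 9.17 before culture and of 8.70 to 8.98 at its end. Their defining marker PTPRC, the pan-leukocyte CD45, had day means of 3.68 to 3.78. The day means of 6 of the 13 lay in or below the arrays' lower quartile range on all days, while CD14 rose and SPI1 fell. Lymphocyte and granulocyte markers summed to 7.38 to 7.74 and 6.09 to 6.83 on day 0 and to 7.49 to 7.70 and 6.19 to 6.28 on day 7, and limma called 0 of these 8 and 4 genes, also at an unadjusted p under 0.05. Endothelial markers, 11 genes, summed to 9.14 to 9.54 and 9.02 to 9.51 on these days, with SELE and CDH5 dim throughout, while ERG and PECAM1 rose and TIE1 fell.

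Many markers of 2 other cell types were also higher on day 7 than on day 0, though not all followed the course of CCL2, LIF and VCAM1. Of 7 measured markers of smooth muscle cells and pericytes all 7 rose by day 7, and their summed level went from 9.35 to 10.15 on day 0 to 15.40 to 15.49. Among them RGS5 was highest on day 2, with day means of 6.77, 12.96, 13.65, 12.01 and 10.43. Of 8 markers of theca and stromal cells 5 rose and 1 fell, with summed levels of 9.56 to 9.81 and 12.78 to 13.01. The 1 that fell was INSL3, from a mean of 8.03 on day 0 to 5.67 on day 7. CYP17A1, at day means of 4.99 to 5.29, and COL3A1, at 6.83 to 7.46, were not called. The gaps between probe sets at the 3′ and 5′ ends moved as well. For actin the 3′ probe set read 0.97 to 1.68 above the 5′ one before culture and 0.19 to 0.59 above it on day 7. For dap, an added control transcript that does not come from the cells, these gaps were 1.72 to 1.77 and 1.25 to 1.45. The part of these in the rises was not tested. Day 4 replicate 2 stood apart in both, at 2.12 and 3.52. Without it the day 4 rises were 7.11 for CCL2, 5.42 for LIF and 4.79 for VCAM1, all still called.

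Arrays with the same replicate number deviated alike in some of these genes. The replicate 2 array was the lowest of its day for LIF and for IL6 on all 5 days, and for CCL2 and VCAM1 on 4 of 5. The replicate 1 array was the highest for IL6 on all 5 days and for CCL2 on 4. CXCL8 had no such order, with replicate 1 highest on 3 days and lowest on 2, and for VCAM1 replicate 1 was highest on 2 days and lowest on 1. The replicate 1 arrays also stood apart over all probe sets. Their array weight was the lowest of each day, at 0.23 to 0.465, against 0.649 to 3.07 in replicates 2 and 3. Their gap between the actin probe sets was the smallest of each day, at 0.02 to 0.97. With replicates 2 and 3 only, the day 7 changes were 7.41 for CCL2, 5.15 for LIF and 6.37 for VCAM1, each called. The same fit gave 1.27 for VCAM1 on day 1 (adjusted p = 0.0791), which was not called.

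**Figure D3:**
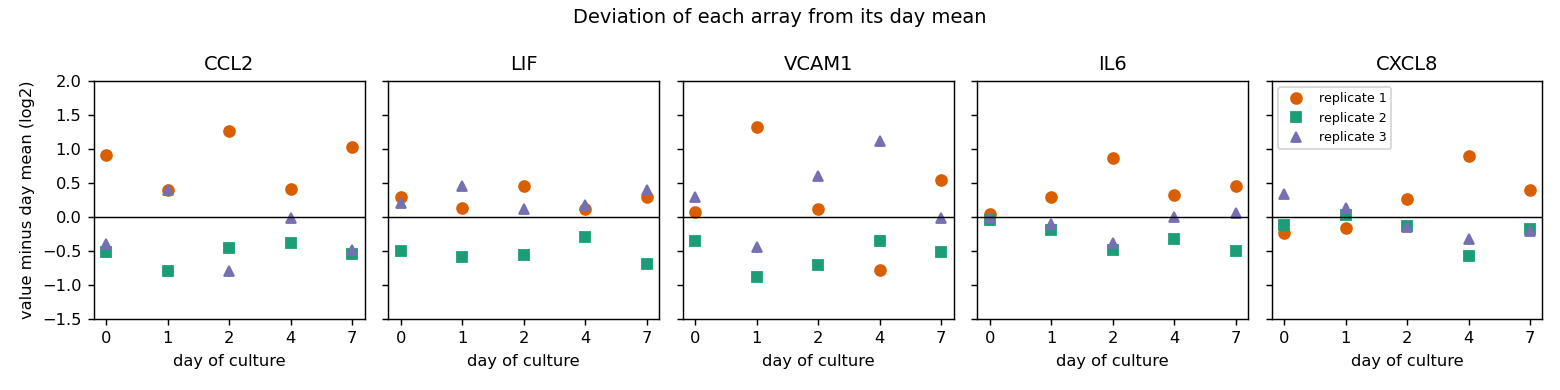
Deviation of each array from the mean of its day (vertical axis, log2) for the 5 genes, by day of culture and replicate number. The replicate 2 array lies lowest on all 5 days for LIF and IL6, and replicate 1 lies highest on all 5 days for IL6.

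Other genes of the same pathways were taken from 10 lists. These hold 106 measured genes, or 101 without the 5 mediators, and 4 of the 106 stand in more than 1 list. On day 7 against day 0, 12.7% of all named genes were called higher and 6.86% lower, with a median change of 0.03. On day 1 the shares were 8.88% and 6.92%, with a median of 0.04. Besides CCL2 and CXCL8, 17 other chemokines were measured, of which 2 rose by day 7 (median -0.06) and 0 were called on day 1. CXCL14, a chemokine of epithelia and stroma, rose by 3.45 ± 0.61 (adjusted p = 6.40e-04), and CXCL16, a transmembrane chemokine, by 1.24 ± 0.27. CXCL14 started from a dim day 0 mean of 4.33. Another probe set of CXCL14 gave 1.65, and with replicates 2 and 3 only CXCL16 differed by 0.98. At an unadjusted p under 0.05, day 1 had 3 of the 19 chemokines higher, CCL2 included, and 0 lower.

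CCR2, the receptor of CCL2, was dim at day means of 4.36 to 4.76 and differed by -0.23 ± 0.25 on day 7. The CXCL8 receptors CXCR1 and CXCR2 have no named probe set and were not analysed here. Of 6 measured chemokine receptors 1 rose on day 1 and 2 on day 7. CXCR4, the receptor of CXCL12, rose by 3.49 ± 0.59 on day 1 and had day means of 5.84, 9.33, 9.91, 8.91 and 7.52. Its difference of 1.69 ± 0.59 on day 7 was called (adjusted p = 0.0421), but not without any 1 of 8 arrays: day 0 replicate 1 (1.43), 2 (1.88) or 3 (1.75), day 1 replicate 3, day 2 replicate 3 or day 4 replicate 2 (1.69 each), and day 7 replicate 1 (1.65) or 3 (1.32). CCR1, a receptor of several CC chemokines, rose by 1.58 ± 0.39 on day 7 from a dim day 0 mean of 4.45.

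Among 9 genes of receptors and signal transduction of the interleukin 6 family, 2 rose and 1 fell on day 1, and 0 rose and 2 fell on day 7, with 3 higher and 3 lower at an unadjusted p under 0.05. The median was 0.06. IL11RA, the receptor of interleukin 11, fell by 1.67 ± 0.14 on day 1 and fell by 2.40 ± 0.14 on day 7 (adjusted p = 2.52e-08). STAT3, the transcription factor these cytokines activate, rose by 1.31 ± 0.26 on day 1 (adjusted p = 0.00188). Without day 1 replicate 1 its change was 0.92, under the minimum, as with array weights (0.96) and replicates 2 and 3 only (0.85), and on day 7 it was 0.93 ± 0.26. SOCS1, an inhibitor of JAK kinases, fell by 1.81 ± 0.37 on day 7, while SOCS3, the feedback inhibitor of gp130, differed by 0.23 ± 0.41 (adjusted p = 0.718). Other probe sets of SOCS1 gave -1.70 and, not called, -0.46. IL6R, the IL6 receptor, was dim at day means of 3.97 to 4.17. IL6ST and LIFR have no named probe set and were not analysed here.

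Of 12 genes of leukocyte adhesion other than VCAM1, 1 rose and 1 fell on each of days 1 and 7 (median 0.01 on day 7). MSN, the membrane-actin linker moesin, rose by 2.71 ± 0.25, and EZR, its relative ezrin, fell by 1.74 ± 0.22 on day 7. ICAM1, a ligand of leukocyte integrins, differed by 1.40 ± 0.62 (adjusted p = 0.105). Day 7 replicate 1 carried much of this value, which was 0.48 without that array (adjusted p = 0.454), 0.76 with array weights and 0.55 with replicates 2 and 3 only. It was called with replicate number as a block (adjusted p = 0.0161) and without day 7 replicate 2 (1.89). ITGB1, the beta subunit of the VCAM1 receptor, differed by 0.84 ± 0.13 (adjusted p = 1.80e-04), under the minimum change, and by 0.49 with cyclic loess. ITGA4 has no named probe set and was not analysed here.

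Of 11 measured interleukin 1 and TNF ligands and receptors, 4 rose on day 1 and 5 on day 7 and 0 fell, with 1 lower on each day at an unadjusted p under 0.05 (median 0.04 on day 7). IL1R1, the signaling receptor of interleukin 1, rose by 3.47 ± 0.36 on day 1 and by 2.64 ± 0.36 on day 7. TNFRSF1A, the main TNF receptor, rose by 2.44 ± 0.19 on day 7 (adjusted p = 3.08e-07). The ligand IL18 rose by 4.96 ± 0.47 from a dim day 0 mean of 4.35, and IL1A by 2.45 ± 0.33. IL1B differed by 0.04 ± 0.22 (adjusted p = 0.914), and TNF by -0.79 ± 0.34 (adjusted p = 0.0936). A second, dim probe set of IL1R1 differed by -0.15 on day 7.

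Of 12 toll-like receptors and adaptors 2 rose on day 1 and 3 on day 7, and 0 fell, with 1 lower on each day at an unadjusted p under 0.05 (median 0.11 on day 7). LY96, the partner of TLR4 in sensing endotoxin, rose by 2.71 ± 0.23 on day 1 and 4.96 ± 0.23 on day 7 (adjusted p = 4.29e-09). IRAK1, a kinase of interleukin 1 and toll-like receptors, rose by 2.09 ± 0.23, and CD14, the endotoxin co-receptor, by 1.67 ± 0.22 on day 7. Second probe sets of IRAK1 and CD14 differed by -0.02 and 0.14. TLR4 itself differed by 0.08 ± 0.25 in the probe set used, and its other probe sets gave -0.39 to 1.11, the last of which was called (adjusted p = 0.00932).

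Only 5 NF-kappaB factors and inhibitors were measured. The fit called 0 on day 1, with 3 higher and 1 lower at an unadjusted p under 0.05, and 1 higher and 1 lower on day 7 (median 0.69). NFKBIA, the inhibitor that NF-kappaB itself induces, fell by 1.20 ± 0.31 (adjusted p = 0.00792), and NFKBIB, a related inhibitor, rose by 1.16 ± 0.15, with 0.07 in its other probe set. NFKB1 was dim, at day means of 3.55 to 3.65, and RELA has no named probe set. Of 14 measured NF-kappaB targets other than the 5 genes, 4 rose and 1 (NFKBIA) fell on day 7 (median 0.41), and 0 were called on day 1, with 2 higher and 1 lower at an unadjusted p under 0.05. The interstitial collagenase MMP1 rose by 4.58 ± 0.97 on day 7, the plasminogen activator PLAU by 2.54 ± 0.22 and the pentraxin PTX3 by 2.47 ± 0.32, with 0.75 in the other probe set of PTX3. MMP1 and PTX3 started from dim day 0 means of 3.95 and 3.49. SOD2, the mitochondrial superoxide dismutase, rose by 1.41 ± 0.30, and differed by 0.95 with replicates 2 and 3 only.

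**Figure D4:**
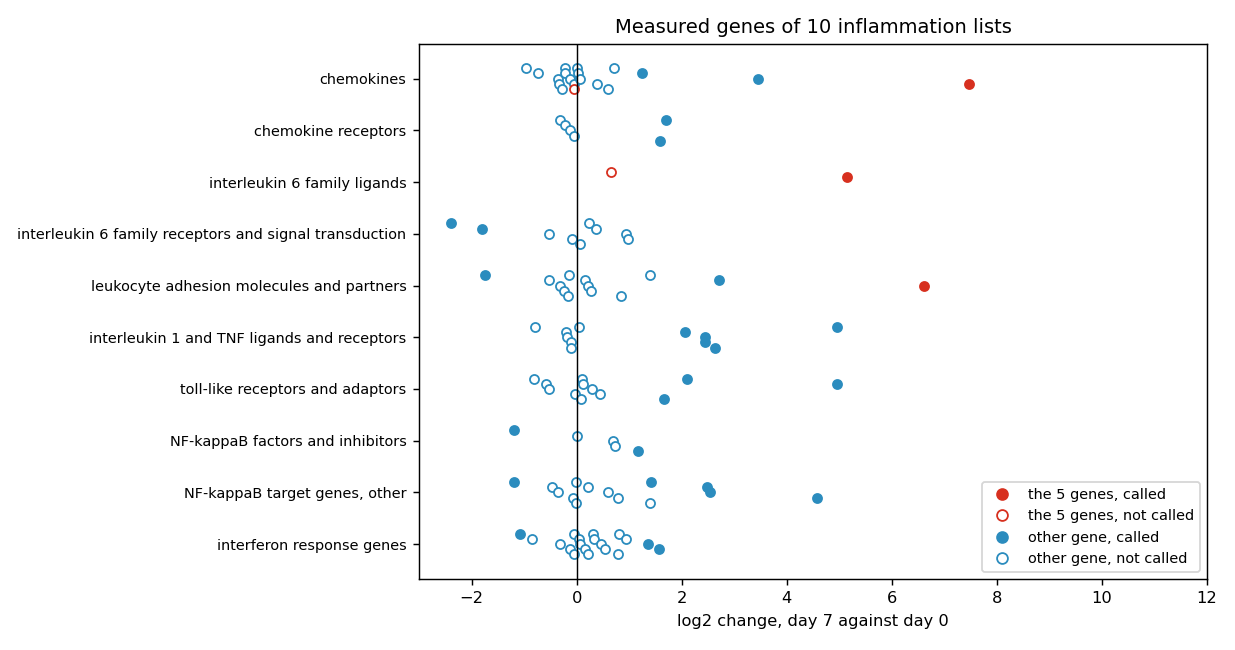
Log2 change on day 7 against day 0 (horizontal axis) of each measured gene of 10 lists, 1 row a list, with filled points for called genes and red for the 5 genes of interest. CCL2, VCAM1 and LIF lie at 7.47, 6.61 and 5.15, and most other members of these lists lie near 0.

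**Figure D5:**
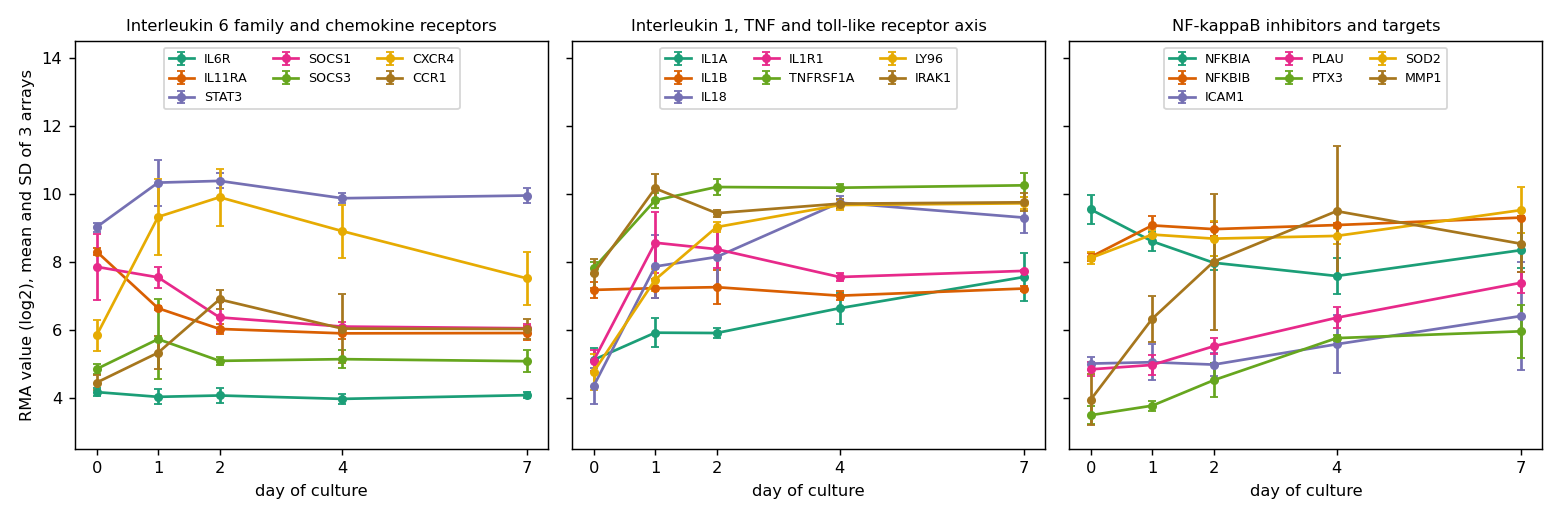
Day means with SD of 3 arrays (vertical axis, log2) of 21 genes of the same pathways, by day of culture. CXCR4 peaks at 9.91 on day 2, IL1R1 is highest at 8.57 on day 1, and LY96 goes from 4.77 to 9.73; levels of different genes are not on a common scale.

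The named genes whose values were most alike to those of each mediator over the 15 arrays were found by Pearson correlation, among 4921 genes (4922 for IL6 and CXCL8) with a day mean of at least 7 on some day. The arrays fall into 5 days, so these values mostly describe a shared time course, and no p is given. For CCL2 they were MCUR1 (r = 0.983), SEC23IP (0.982), DESI2 (0.978) and TPM4 (0.977). TPM4 had day means of 11.67, 12.87, 13.38, 13.82 and 13.85, with its largest step on the first day. For LIF they were ACSL1 (0.981), MYH9 (0.979), PDLIM7 (0.976) and CSRP1 (0.969). ACSL1 had day means of 4.72, 6.19, 6.53, 8.22 and 8.45, with its largest step between days 2 and 4. For VCAM1 they were PKDCC (0.959), FABP5 (0.958), CSRP1 (0.954) and PDLIM7 (0.947), and PKDCC was at 10.61 on day 4 and 11.73 on day 7. CSRP1 and PDLIM7 stand in the lists of both LIF and VCAM1. For IL6 the closest were PSMB1 (0.934), CNOT8 (0.921), LAP3 (0.911) and ATP2C1 (0.910). For CXCL8, whose values were at the bottom of the scale, the closest, DNAJC9, reached only 0.761.

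Over all probe sets, the limma fit called 12.5%, 13.8%, 15.9% and 16.6% on days 1, 2, 4 and 7 against day 0, and 9.03% on day 7 against day 1. The shares were 3.04% on day 2 against day 1, 2.53% on day 4 against day 2, 0.0583% on day 7 against day 4 and 23.6% in the F test.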

How the data were processed

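The deposited table holds 24123 probe set values for each of 15 arrays. Per the submitters' processing notes, the authors made these log2 values with RMA. Its version and software are not given in the sources used here. RMA gives arrays a similar distribution, so a change is relative to the rest of the array. Array medians ran from 6.40 to 6.55, and correlations of arrays of a day from 0.963 to 0.996. Control probe sets (124) were left out, which left 23999. Of all probe sets, 10069 had 1 symbol in the array annotation, 198 had several and 13732 had none, and only the first were named. The files name no genome build, so no positions are given. A gene with several probe sets was read from that with the highest mean over the arrays.

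Day was fitted as a factor in limma 3.58.1 (R 4.3.3), which gave the moderated tests, SE and 95% intervals. The procedure was tested on simulated data. The members and the lists were chosen with earlier results of these data known. The genes named are the members, up to 4 genes of each list with the largest called change on day 7 and up to 2 on day 1, 19 central genes of which 13 were measured, and the 4 genes most alike to each member. Marker genes and second probe sets outside this rule were picked after their values were seen.

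Deviations from the day means correlated above 0.1 for every pair of arrays with the same replicate number in 7 of 8 comparisons, and at 0.061 to 0.333 on day 1 against day 0. Between later days the correlations were larger. They were 0.473 to 0.573 on day 2 against day 1, 0.288 to 0.634 on day 4 against day 2 and 0.416 to 0.727 on day 7 against day 4. The labels do not tie the numbers to a shared animal or day, and the fit reported has no block. The alternatives are given with their effect in the closing section.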

Additional observations from a re-analysis of the deposited data

How the results depend on the processing

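Under 25 alternatives (15 that each left out 1 array and 10 others, of which replicates 2 and 3 only was chosen after seeing the data), CCL2 and LIF kept their call and direction against day 0 in 100 of 100 values each. VCAM1 kept them in 95 of 100, and the 5 lost were all on day 1: array weights gave 1.36, replicates 2 and 3 only 1.27, and leaving out day 0 replicate 1, day 0 replicate 2 or day 1 replicate 1 gave 1.93, 1.72 and 1.23. Over all arrays left out in turn the range was 1.23 to 2.34. With array weights, VCAM1 was called on day 2 against day 1 (1.65) and CCL2 and VCAM1 on day 4 against day 2 (2.07 and 2.28), as they were there with replicates 2 and 3 only (1.95 and 2.17). Leaving out an array gave 1.12 to 2.15 for this step of CCL2. With the replicate number as a block, CCL2 was called on day 2 against day 1 (1.22) and on day 4 against day 2 (1.52), VCAM1 on the latter (1.73) and ICAM1 on day 7, and the block changed no other call of a named gene. Counts with the block were 3225 on day 1 and 4197 on day 7 against day 0. IL6 against day 0 was called on day 2 without the minimum change (0.94) and on day 4 after a second quantile normalization (1.00), and leaving out an array gave 0.51 to 1.18, 0.72 to 1.04 and, for the range over days, 0.88 to 1.18. The sign of IL6 turned on day 1 (-0.01 with replicates 2 and 3 only, -0.03 to 0.21 without an array), on day 4 against day 2 (0.01 with the second quantile normalization, 0.28 with array weights, 0.21 with replicates 2 and 3 only, -0.31 to 0.37 without an array) and on day 7 against day 4 (-0.46 to 0.02 without an array). That of LIF on day 7 against day 4 turned without an array (-0.32 to 0.23). CXCL8 had no stable sign. On days 2 and 4 against day 0 it was -0.10 and -0.01 with array weights and -0.13 and -0.23 with replicates 2 and 3 only, and on day 7 it was 0.04 with cyclic loess. On day 2 against day 1 it was -0.02 with array weights and -0.06 with replicates 2 and 3 only, and -0.10 with the latter on day 4 against day 2. On day 7 against day 1 it was 0.02 with the second quantile normalization and 0.04 with cyclic loess. Without an array, CXCL8 ran from -0.16 to 0.13, -0.02 to 0.29, -0.12 to 0.62 and -0.24 to 0.12 on days 1, 2, 4 and 7 against day 0, from -0.23 to 0.50 on day 4 against day 2, from -0.67 to 0.07 on day 7 against day 4 and from -0.20 to 0.10 on day 7 against day 1. On day 7 against day 0 the sign also turned for IL6R (0.02 with the second quantile normalization, 0.03 with cyclic loess), NFKB1 (-0.03 with arrays shifted to the same median, -0.06 to 0.11 without an array), IL1B (-0.04 with the second quantile normalization, -0.10 to 0.11 without an array), TLR4 (0 with array weights, -0.04 with replicates 2 and 3 only, -0.24 to 0.27 without an array) and CCR2 (-0.35 to 0.03 without an array). Without the minimum change, called probe sets went from 3001, 3306, 3811 and 3993 on days 1, 2, 4 and 7 against day 0 to 6020, 6248, 7360 and 7514, from 729 to 1461 on day 2 against day 1, from 608 to 1002 on day 4 against day 2, from 2168 to 4524 on day 7 against day 1 and from 5670 to 8605 in the F test. Day 2 against day 1 gave 1295 with array weights, 1321 with replicates 2 and 3 only and 451 to 986 without an array, lowest without day 2 replicate 3 (451), day 2 replicate 2 (465) and day 1 replicate 2 (478). Day 4 against day 2 gave 371 with only the 6 arrays compared. Day 7 against day 4, with 14 calls, gave 4 without the dimmest 40% of probe sets, 69 with array weights, 41 with the replicate block, 55 with replicates 2 and 3 only, 0 with only the 6 arrays compared (limma, 1240 at an unadjusted p under 0.05) and 4 to 15 without an array, lowest without day 4 replicate 2 (4) and day 7 replicate 2 (9). Dropping the minimum change can only add calls, and the cause of the other shifts was not tested. IL6 and CXCL8 have no value without the dimmest 40%, and their signal near the bottom of the arrays limits what could be seen of them. Other probe sets of the members and the promoter motifs were not run, since each member has 1 probe set and no promoter sequence was used here.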

Other observations

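Interferon response genes were a further list, of 19 measured genes. On day 1 limma called 0, with 3 higher and 1 lower at an unadjusted p under 0.05, and on day 7 it called 2 higher and 1 lower, with a median change of 0.22 against 0.03 over all named genes. Of all named genes 12.7% were called higher and 6.86% lower on day 7, so these counts are near the background. DDX58, the sensor of viral RNA also called RIG-I, rose by 1.57 ± 0.21 (SE, adjusted p = 5.87e-05) on day 7 against day 0, and PSMB8, a subunit of the immunoproteasome, by 1.36 ± 0.28. IFIT1, an interferon-induced RNA-binding protein, fell by 1.09 ± 0.24 (adjusted p = 0.00306), and its other probe sets gave -0.96 and -0.44, neither called. Its change was under the minimum with cyclic loess (-0.97), without day 0 replicate 2 (-0.90) and without day 7 replicate 2 (-0.94).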
